A study of Homo sapiens with 8 samples.

Results

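The C-type lectin receptors on the short arm of human chromosome 12 were followed here as 10 genes: CLEC4A, CLEC4C, CLEC4D, CLEC4E, CLEC6A, CLEC7A, CLEC12A, CLEC1A, CLEC2B and OLR1. They are 10 of the 20007 protein-coding genes of the annotation, GENCODE release 44 on hg38. Their chromatin was read from every ATAC-seq peak that overlapped a gene body or the 25 kb on either side of it. These windows merge into 6 stretches of 586 kb in all. They held 89 of the 161291 regions found over the whole genome (the autosomes, X and Y), where overlapping peaks of the 4 treatment groups were merged into 1 region. Of the 89, 72 lay in the window of 1 gene and 17 in the windows of several neighbours.

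The cells were U-937, an established human monocytic leukaemia line grown in suspension, and were exposed for 24 h. The 4 groups of 2 samples received the DMSO vehicle, 0.1 µM all-trans retinoic acid (ATRA, the ligand of the retinoic acid receptors and an inducer of myeloid differentiation), 0.1 µM Corin (a compound that inhibits both the histone demethylase and the histone deacetylases of the CoREST complex), or both compounds together. The label of the vehicle group also carries 0.1 µM. The design asks how each compound alone and the pair change accessible chromatin in this 1 line.

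The files give 1 peak list per group, over both of its samples, so no value below has a replicate spread and no difference was tested. The labels do not say whether the samples of a group came from separate cultures. Between 189896 (Corin) and 222491 (DMSO) peaks made up a list, and the read depth behind them is unknown. The quantity used throughout is column 7 of the peak lists, the peak caller's own fold of the signal at a summit over the local background. A region takes the highest column 7 of its peaks in each list, and is absent from a list in which no peak there passed the authors' filter. Values given without names are in the order DMSO, ATRA, Corin and combination. Promoters of 10 of 12 monocyte and myeloid marker genes held a region in all 4 lists, those of CD14 and MPO in none, where 69.3% to 71.6% of all protein-coding genes had a promoter region in a list. B cell markers had one in all 4 lists for 4 of 6 genes and epithelial markers for 3 of 6. Erythroid markers had one in all 4 lists for 2 of 6 genes. Natural killer cell markers did for 1 of 6, with 3 more in some lists only. T cell markers had one in all 4 lists for 2 of 6 genes, CD2 and CD8A. CD3D, CD3E and CD3G, which define T cells, and CD28 had none in any list.

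C-type lectin receptors are surface proteins of myeloid cells that recognise sugars, lipids and products of damaged cells. Some couple to the Fc receptor gamma chain or carry their own tyrosine motif and signal through the kinase SYK and the adaptor CARD9; others carry an inhibitory motif that recruits the phosphatases PTPN6 and PTPN11. Their genes lie in clusters beside the natural killer receptor genes, and monocytes express different sets of them as they mature.

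The sequences below are the summits, on the plus strand of hg38, of 4 regions in which presence or level differed widely between the lists. Capitals mark exact matches, on either strand, to a fixed set of short motifs of myeloid transcription factors. The CLEC4A stretch ends at the base before the annotated transcription start.
CLEC4A promoter, chr12:8123501-8123616: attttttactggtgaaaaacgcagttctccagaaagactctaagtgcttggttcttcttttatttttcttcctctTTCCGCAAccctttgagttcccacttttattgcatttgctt
CLEC4E promoter, chr12:8540947-8541097: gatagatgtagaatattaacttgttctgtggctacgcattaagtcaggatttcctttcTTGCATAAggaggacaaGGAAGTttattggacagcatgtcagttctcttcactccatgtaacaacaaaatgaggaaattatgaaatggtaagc
CLEC1A intron, chr12:10094781-10094931: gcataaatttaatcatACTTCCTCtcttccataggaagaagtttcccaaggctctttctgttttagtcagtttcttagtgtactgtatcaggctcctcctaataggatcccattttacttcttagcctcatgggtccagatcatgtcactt
CLEC4C window, chr12:7759445-7759595: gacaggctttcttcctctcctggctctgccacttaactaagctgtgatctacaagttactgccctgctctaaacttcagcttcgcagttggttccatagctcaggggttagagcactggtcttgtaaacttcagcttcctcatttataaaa
The CLEC4A promoter holds a match to the C/EBP motif TTGCNNAA, read on the minus strand, and the wider 200 bp window of that region also holds the GFI1 motif AATCNNNGC. The CLEC4E promoter holds a C/EBP match and the ETS core GGAAGT. The CLEC1A intron has the PU.1 motif GAGGAAGT, which contains the ETS core, and the region of the CLEC4C window has none.

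Across all 89 lectin regions, in 200 bp around the strongest summit, the counts of matches stood beside those over all 161291 regions as follows. C/EBP matched 13 lectin regions (14.6%, 14.5% of all regions), the AP-1 motif TGANTCA 10 (11.2%, 12.2%), the RUNX motif TGTGGT 18 (20.2%, 20.7%) and the ETS core 21 (23.6%, 27.6%). PU.1 matched 4 (4.49%, 6.73%), the IRF motif GAAANNGAA 3 (3.37%, 7.04%) and GFI1 8 (8.99%, 7.82%). The NF-kB motif GGANTTTCC matched no lectin region and 0.686% of all. For the retinoic acid receptors only exact direct repeats of GGTCA were searched, and no lectin region held one. Over all regions these were in 0.08% (spacer 5), 0.0682% (spacer 2) and 0.0639% (spacer 1). At shares this low, 89 regions are too few for the lack of a match to carry a conclusion. Receptor sites with other letters were not searched. A match describes letters in a window and is not a binding site.

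Of the 89 regions, 59 were held by the DMSO list, 73 by ATRA, 55 by Corin and 64 by the combination. The ATRA list thus had the most lectin regions although it held fewer regions over the genome than the DMSO list (110695 against 113788). All 4 lists held 42 regions, 47.2% against 41.1% of all regions. ATRA alone held 11 (12.4%, 11.4% of all regions), and ATRA and the combination, but neither DMSO nor Corin, held 7 (7.87%, 3.2% of all). The Corin list alone lacked 6 (6.74%, 3.67% of all). Regions held by DMSO alone numbered 3 (3.37%, 10.2% of all), by Corin alone 4 (4.49%, 8.05%) and by the combination alone 4 (4.49%, 3.93%).

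**Figure D1:**
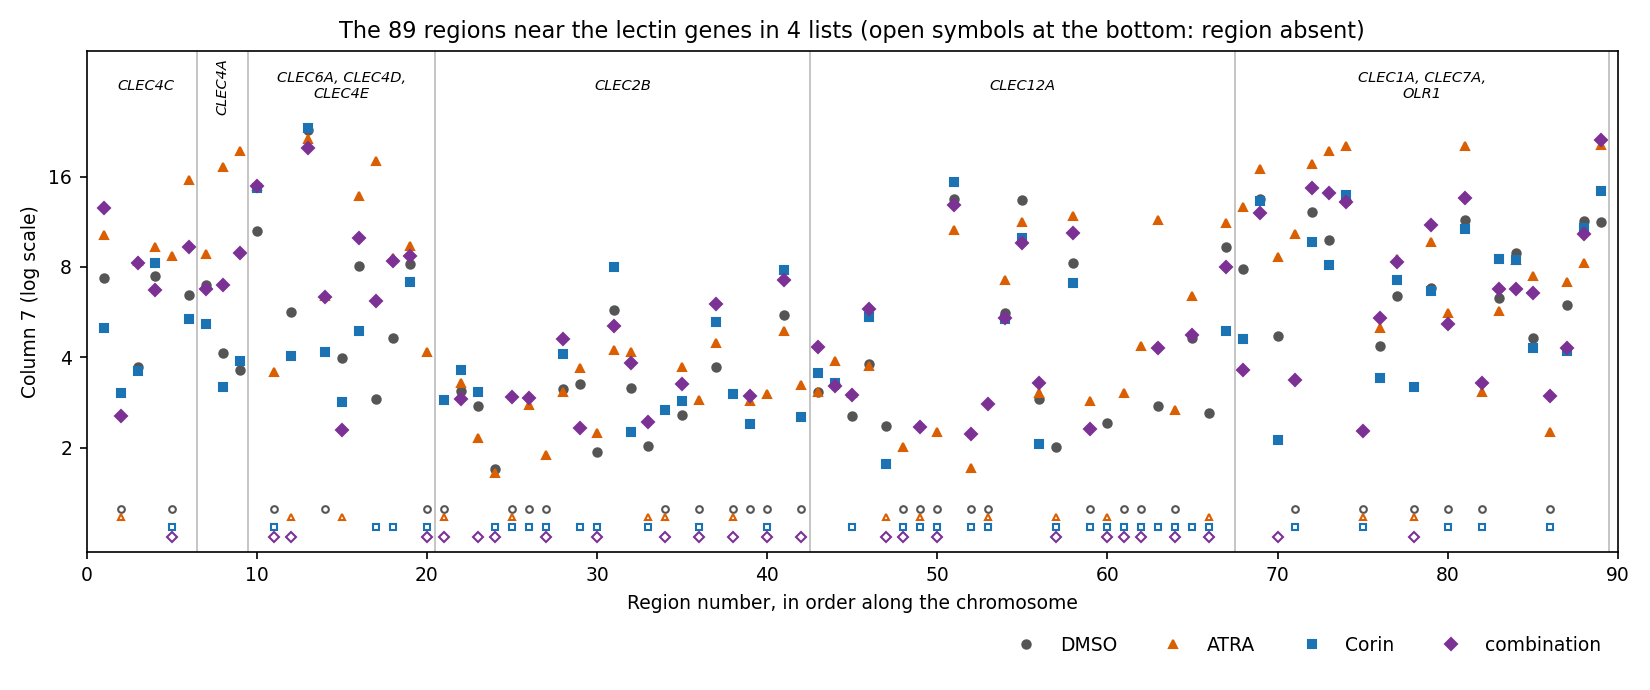
Column 7 (log scale) of the 89 regions, numbered in order along the chromosome and divided by vertical lines into the windows named at the top, with 1 filled symbol per list that holds the region and an open symbol at the bottom for each list that lacks it. Weak regions absent from 1 or more lists crowd the windows of CLEC2B and CLEC12A, and in the CLEC4A window the ATRA symbols stand above the others, at 17.2 for the promoter region.

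Against DMSO, ATRA gained 21 and lost 7 of the 80 regions that either list held. The gained share was 26.2% (95% Wilson interval 17.9 to 36.8, counting error only, with neighbouring regions taken as independent), beside 18.5% over all regions. The lost share was 8.75% (4.3 to 17), beside 20.7%. Corin gained 8 of 67 (11.9%, beside 13.4% of all regions) and lost 12 of 67 (17.9%, beside 24.6%). The combination gained 14 of 73 (19.2%, interval 11.8 to 29.7, beside 12%) and lost 9 of 73 (12.3%, 6.62 to 21.8, beside 27.9%). Losses were below the share over all regions in all 3 comparisons, which share the DMSO list.

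For regions held by both lists, the ratio of column 7 was divided by the median ratio of all regions the pair shared, which was 1.26 for ATRA over DMSO, 0.943 for Corin over DMSO and 1.02 for the combination over DMSO. A centred ratio of at least 1.5 was counted as higher and of at most 0.667 as lower. With ATRA, 7 of 52 shared lectin regions were higher (13.5%, beside 16.6% of all regions) and 4 lower (7.69%, beside 8.8%), both near the background. With Corin, 1 of 47 was higher (2.13%, beside 6.34%) and 4 lower (8.51%, beside 10.8%). Without the centring the split for ATRA was 15 higher and 0 lower, and that for Corin 0 higher and 4 lower. With the combination, 10 of 50 were higher (20%, interval 11.2 to 33, beside 8.26%) and 2 lower (4%, beside 12.1%). The median centred log2 ratio of the lectin regions was 0.00 with ATRA, 0.01 with Corin and 0.23 with the combination, where that of all shared regions is 0.00 by construction.

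Column 7 divides by the local background, and the local background near some of these genes differed between the lists. The pileup at each summit, the number of overlapping reads as the caller counts them, was therefore solved from the deposited p-value and fold and set against the list's most frequent background (12.8 reads in the DMSO list, 9.12 in ATRA, 13.1 in Corin, 13.9 in the combination), a measure chosen after the data were seen. On it, with the same centring, 19 of 52 shared lectin regions were higher with ATRA (36.5%, interval 24.8 to 50.1, beside 18.3% of all regions) and 0 lower (beside 16.4%). With Corin 1 of 47 was higher (2.13%, beside 10.2%) and 8 lower (17%, beside 13.9%). With the combination 15 of 50 were higher (30%, 19.1 to 43.8, beside 12.5%) and 8 lower (16%, beside 19.4%). The count for ATRA thus depends on which background divides the signal, and some regions below passed the ratio by 1 measure only.

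**Figure D2:**
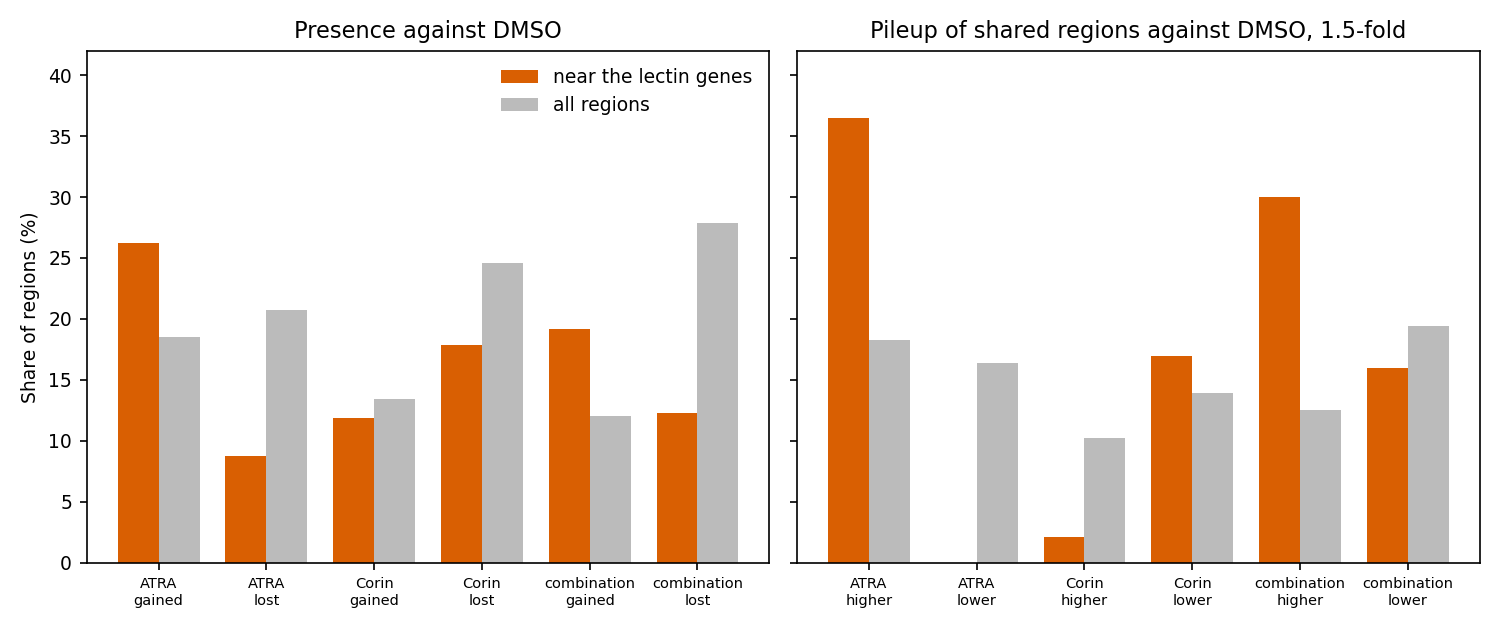
Share of regions (%) gained or lost against the DMSO list (left) and share of shared regions whose centred pileup was at least 1.5 times higher or lower (right), with orange bars for the regions near the lectin genes and grey bars for all regions. The lectin bar for ATRA gains reaches 26.2% beside 18.5%, and that for higher pileup with ATRA 36.5% beside 18.3%. Pileup was chosen after the data were seen. By column 7, which is not drawn, the higher share with ATRA was 13.5% beside 16.6%.

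Of the 10 receptors, 4 couple to the Fc receptor gamma chain: CLEC4E (Mincle) and CLEC4D (MCL), which bind mycobacterial cord factor, CLEC6A (Dectin-2), which binds fungal mannans, and CLEC4C (BDCA-2), a receptor of plasmacytoid dendritic cells. CLEC4E (ENSG00000166523.8, chr12:8533305-8540905, minus strand) had 1 promoter region, with a column 7 of 4.64 in DMSO, 8.56 in ATRA and 8.35 in the combination, and it was absent from the Corin list. Its strongest summit lay 114 to 129 bp upstream of the annotated start in the 3 lists that held it. The pileup there was 63 reads in DMSO, 97 in ATRA and 173 in the combination. The combination was 1.77-fold the DMSO value after centring and ATRA 1.46-fold, just under the ratio counted as higher. A stretch of 50 bp in this region has a second exact copy 25145 bp away, so a read lying wholly within it cannot be placed by its sequence.

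CLEC4D (ENSG00000166527.8, chr12:8509475-8522366, plus strand) has an upstream annotated start as well as its canonical one. The region at its canonical start had a column 7 of 8.04 in DMSO, 13.8 in ATRA, 4.88 in Corin and 9.98 in the combination. ATRA was 1.36-fold DMSO there after centring, under the ratio counted as higher. The Corin list was lowest, at 0.644 times DMSO after centring in column 7 and 0.677 times in pileup, which does not pass the ratio. At the upstream start the lists with ATRA stood below the others instead, at 3.99 in DMSO, 2.83 in Corin and 2.28 in the combination and absent from ATRA. An intronic region of CLEC4D had the highest column 7 ratio of ATRA over DMSO of all shared lectin regions (by pileup the CLEC1B region described below was higher, at 4.46 against 4.32). Its column 7 was 2.9 in DMSO, 18 in ATRA and 6.16 in the combination, with pileups of 39, 181 and 91 reads, and the Corin list lacked it. After centring, ATRA was 4.92-fold and the combination 2.08-fold the DMSO value, and the combination was 0.433 times ATRA.

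CLEC6A (ENSG00000205846.4, chr12:8455962-8478330, plus strand) had a promoter region in the ATRA list only, with a column 7 of 3.56, a pileup of 56 reads and a −log10 p of 15.9. A larger region 2592 bp upstream of its start was in all 4 lists, at 10.5 in DMSO, 14.9 in ATRA, 14.6 in Corin and 14.9 in the combination. Its pileups of 144, 247, 270 and 524 reads were further apart than these folds, over local backgrounds of 12.8, 15.6, 17.6 and 34.4 reads. The strongest region between CLEC6A and CLEC4D, 16163 bp upstream of CLEC4D, had the highest column 7 of all 89 and no centred ratio over DMSO past 1.5 in either direction, at 22.8, 21.3, 23.2 and 19.9 in the same order.

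CLEC4C (ENSG00000198178.11, chr12:7729383-7751605, minus strand) had 2 promoter regions that behaved differently. At its canonical start, column 7 was 3.7 in DMSO, 8.4 in ATRA, 3.61 in Corin and 8.23 in the combination, so that the lists with ATRA stood together above those without it. Centred ratios over DMSO were 1.8 for ATRA and 2.19 for the combination. Upstream of the longest transcript the values were 7.46, 9.29, 8.21 and 6.69, and no centred ratio over DMSO passed 1.5. The strongest region of the CLEC4C window lay in an intron of the neighbouring gene NANOGNB (chr12:7770156-7770982), at 6.45, 15.6, 5.38 and 9.31. A region between the genes (chr12:7759374-7759641), shown above as the stretch without a motif match, was in the ATRA list alone at 8.7. In an intron of DPPA3 at the other end of the window (chr12:7716400-7716740) the combination list was highest, at 12.6 against 7.32 in DMSO, 10.2 in ATRA and 5.02 in Corin.

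CLEC4A (DCIR) and CLEC12A (CLL-1, a surface marker of acute myeloid leukaemia blasts) carry an inhibitory motif. CLEC4A (ENSG00000111729.15, chr12:8123617-8138607, plus strand) had the promoter with the widest range over the lists among the 10 genes. Its column 7 was 4.13 in DMSO, 17.2 in ATRA, 3.18 in Corin and 6.96 in the combination, and its pileups were 56, 173, 44 and 103 reads. ATRA was 3.3-fold and the combination 1.65-fold the DMSO value after centring, Corin was 0.818 times it, and the combination was 0.512 times ATRA. The local background was at the list level in all 4 lists here, and the centred pileup ratios were 2.88 for ATRA and 1.65 for the combination. With the background at that level, column 7 and the pileup measure differ almost only by their centring, so they are not separate evidence.

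The position of the CLEC4A promoter summit also differed. In the DMSO and Corin lists the single summit lay 107 and 123 bp downstream of the start, while in ATRA and the combination the strongest summit lay 41 and 26 bp upstream of it, within the sequence shown above. A second summit in those lists, 168 bp downstream in ATRA (column 7 of 9.98) and 134 bp downstream in the combination (5.56), was nearer to the DMSO position. The other strong region of the window was the promoter of ZNF705A, a zinc finger gene, at 3.62 in DMSO, 19.5 in ATRA, 3.89 in Corin and 8.9 in the combination. Among 13084 genes with a promoter region in all 4 lists, those nearest to CLEC4A in centred log2 column 7 over the 4 lists were CIB4 (distance 0.35; 4.49, 17.6, 2.69 and 8.13), CCR3 (0.35; 4.71, 15.9, 3.11 and 8.44) and DEFB124 (0.38; 3.44, 15.4, 3.61 and 6.36).

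CLEC12A (ENSG00000172322.14, chr12:9951316-9995694, plus strand) had 2 promoter regions. At its most upstream start column 7 was 13.4 in DMSO, 11.3 in ATRA, 9.95 in Corin and 9.64 in the combination, with the DMSO list highest. The pileups were 524, 619, 241 and 336 reads, and on these the Corin value was 0.504 and the combination value 0.574 times DMSO after centring. At the canonical start column 7 was 8.21, 11.8, 7.07 and 10.4. The region with the most reads of all 89 lay 7850 bp upstream of CLEC12A (chr12:9942976-9943818), at 13.5, 10.6, 15.4 and 12.9, with pileups of 851, 914, 775 and 800. ATRA there was 0.621 times DMSO in column 7 after centring and equal to it in pileup (centred log2 of 0.00). The DMSO list held 16 regions of the CLEC12A window, of which Corin lost 6, and Corin gained 0. In the neighbouring CLEC2B window Corin gained 5 and lost 4, and the shares over all regions were 13.4% gained and 24.6% lost.

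CLEC7A (Dectin-1), the receptor for fungal beta-glucans that carries its own tyrosine motif, is at chr12:10116777-10130258 on the minus strand (ENSG00000172243.18). Its strongest region was not at the start but in the gene, 1133 to 1158 bp downstream of the nearest annotated start, and was among the strongest of the 89. Column 7 was 13.3 in DMSO, 20.3 in ATRA, 13.9 in Corin and 13.2 in the combination. The pileup gave another order, at 224, 496, 234 and 413 reads, over local backgrounds of 16, 23.5, 15.9 and 30.3 reads. After centring, ATRA was 1.21-fold DMSO in column 7 and 2.06-fold in pileup, and the combination 0.978-fold and 1.65-fold. At the start itself, only the combination list held a region, at 2.27 with a −log10 p of 9.66. A region about as far upstream, with its summit 1041 to 1051 bp before the start, was in all 4 lists at 4.36, 5, 3.4 and 5.41. A second intronic region of CLEC7A stood at 9.86, 19.4, 8.13 and 14.1.

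OLR1 (LOX-1), the receptor for oxidised low-density lipoprotein, is at chr12:10158301-10172138 on the minus strand (ENSG00000173391.9). No list held a region within 1 kb of its canonical start, at position 10172132, and its promoter regions lay at internal transcript starts. The region at an internal transcript start had a column 7 of 11.5 in DMSO, 20.3 in ATRA, 10.7 in Corin and 13.6 in the combination, with pileups of 159, 416, 160 and 409. Both lists with ATRA thus stood above both without it in reads. The centred pileup ratios over DMSO were 2.44 for ATRA and 2.3 for the combination, against 1.4 and 1.16 in column 7. The other promoter regions of OLR1 were held by the lists with ATRA and by neither of the others, at 5.63 in ATRA and 5.16 in the combination for one and at 3.06 and 3.27 for the other. The strongest region of its window lay outside genes, 10025 bp downstream of the start of the neighbour TMEM52B, at 11.3, 20.4, 14.3 and 21.1. After centring the combination was 1.83-fold DMSO there, and ATRA was 1.43-fold, under the ratio counted as higher.

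CLEC1A (MelLec), a receptor for fungal melanin, is at chr12:10069554-10111627 on the minus strand (ENSG00000150048.10). No list held a region within 1 kb of any of its 5 transcript starts. It was the only one of the 10 genes without a region at any annotated start. Its introns did hold regions. One of these (chr12:10094527-10095174), 4094 bp inside the nearest start and shown above with its PU.1 match, was in ATRA at 10.3 and in the combination at 3.35, and in neither DMSO nor Corin. Another (chr12:10082009-10082889) was at 4.71 in DMSO, 8.6 in ATRA and 2.12 in Corin and absent from the combination. After centring ATRA was 1.45-fold DMSO there, under the ratio counted as higher, and Corin was 0.478 times DMSO. One more, shared with the CLEC7A window, was in all lists at 12.2, 17.6, 9.66 and 14.6. In CLEC9A, a neighbouring lectin gene, an intronic region was lowest with Corin present, at 7.9 in DMSO, 12.7 in ATRA, 4.6 in Corin and 3.62 in the combination. Its centred ratios over DMSO were 1.27 for ATRA, under the ratio counted as higher, 0.618 for Corin and 0.449 for the combination.

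CLEC2B (AICL), the myeloid ligand of the natural killer receptor encoded by KLRF1, is at chr12:9852369-9869386 on the minus strand (ENSG00000110852.5). Its promoter region was the one in which Corin stood highest, with a column 7 of 5.76 in DMSO, 4.23 in ATRA, 7.99 in Corin and 5.1 in the combination. ATRA was 0.582 times DMSO after centring, and Corin was 1.47-fold, under the ratio counted as higher. The pileups were 321, 368, 330 and 273 reads over local backgrounds of 54.9, 86.2, 40.4 and 52.8 reads. By centred pileup ATRA was 1.07-fold and Corin 1.13-fold DMSO. The strongest summit was 25 and 16 bp upstream of the start in DMSO and ATRA, and 224 and 204 bp upstream in Corin and the combination. All 4 lists held a summit near both positions, and only their order differed. In column 7, Corin and the combination stood above the other lists at a region in an intron of KLRF2 (chr12:9890134-9890915), at 5.54, 4.89, 7.79 and 7.24. Neither passed the ratio over DMSO there after centring, at 1.49 for Corin and 1.28 for the combination. The promoter of KLRF1, in the same window, held a region in the Corin list only, at 2.87.

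**Figure D3:**
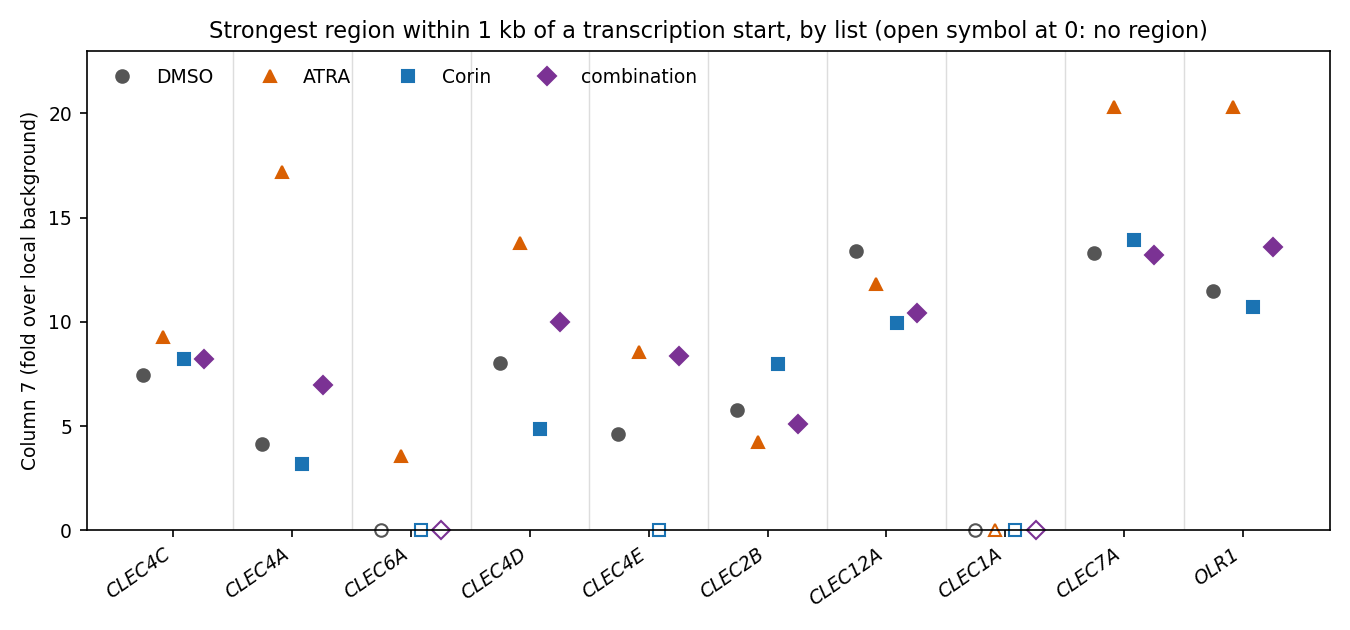
Column 7 (fold over local background, linear axis from 0) of the strongest region within 1 kb of any transcript start of each gene, with 1 symbol per list and an open symbol at 0 where the list holds none. CLEC4A is at 17.2 with ATRA against 3.18 to 6.96 in the other lists, CLEC2B is highest with Corin at 7.99, and CLEC1A has no region in any list.

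The local background from the CLEC2B window to the start of CLEC12A, 124 kb, was above the list level in every list and highest in ATRA. Over the 13 regions of this stretch in all 4 lists, the median local background was 43.8 reads in DMSO, 59.8 in ATRA, 25.9 in Corin and 29.2 in the combination. Relative to each list's most frequent background these are 3.42, 6.56, 1.98 and 2.1 times, where the medians over the 66303 regions in all 4 lists genome-wide were 1.96, 2.3, 1.83 and 1.85 times. For ATRA the relative background was above DMSO at 13 of 13 regions, for Corin below it at 13 of 13 and for the combination below it at 10 of 13. These neighbouring regions share the signal around them and are not independent. The genome-wide medians lay on the same sides of DMSO, and matching counts over all regions were not taken. The stretch was not set in advance. By contrast, the CLEC4C and CLEC4A windows had a median local background at the list level in every list.

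**Figure D4:**
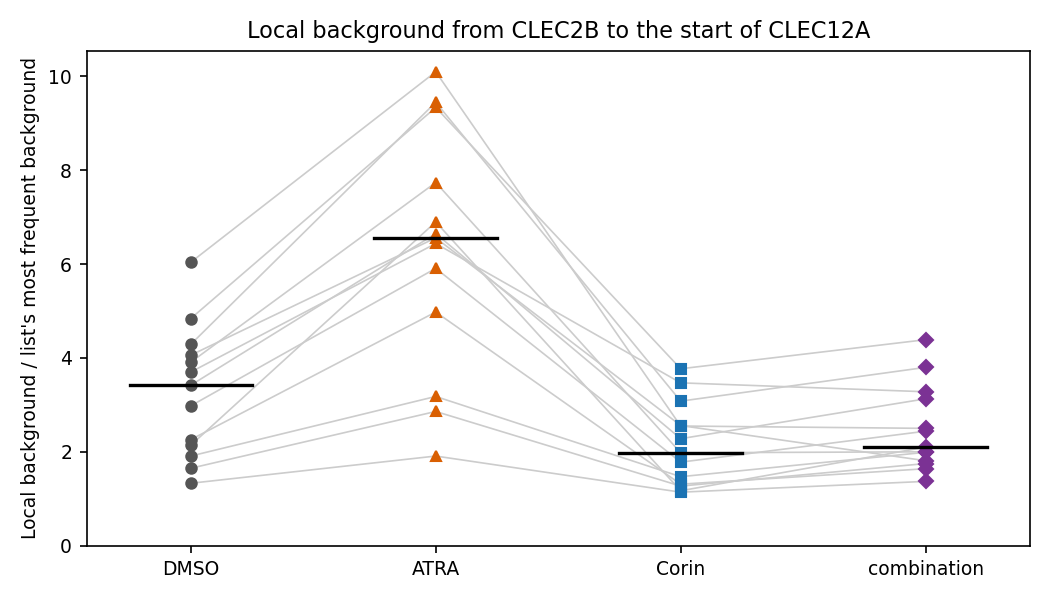
Local background of the 13 regions in all 4 lists between CLEC2B and the start of CLEC12A, divided by the most frequent background of each list, with 1 symbol per region, grey lines joining the same region and black bars at the medians. The medians are 3.42 in DMSO, 6.56 in ATRA, 1.98 in Corin and 2.1 in the combination.

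Such a local background is the divisor of column 7. Within the CLEC2B window, 0 of 11 shared regions were higher and 2 lower with ATRA by column 7, and 5 were higher and 0 lower by pileup. In the CLEC12A window 1 was higher and 1 lower by column 7 and 4 higher and 0 lower by pileup, of 12. In the windows of CLEC1A, CLEC7A and OLR1, 1 was higher and 1 lower by column 7 and 4 higher and 0 lower by pileup, of 16. Over all shared regions, 16.6% were higher and 8.8% lower with ATRA by column 7. By pileup these shares were 18.3% and 16.4%, and the counts of single windows are small beside them. Why the local background differed between the lists was not tested.

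The combination was also set against each compound alone, which shares lists with the comparisons above. Against ATRA it gained 7 of 80 lectin regions (8.75%, beside 11.5% of all regions) and lost 16 (20%, beside 25.4%). Of 57 shared regions 11 were higher (19.3%, beside 7.18%) and 6 lower (10.5%, beside 18.1%) by column 7. By pileup the balance was the other way, with 8 higher (14%, beside 12.9%) and 16 lower (28.1%, beside 19.8%). The 6 that were lower in column 7, and lower by pileup too, were the CLEC4A promoter (0.512), the ZNF705A promoter (0.577), the CLEC4D intron (0.433), the CLEC1B region (0.47), the CLEC9A intron (0.361) and the CLEC1A intron (0.412). The CLEC4E promoter was not among them, at 1.23 in column 7 and 1.79 in pileup after centring.

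Against Corin, the combination gained 18 of 73 (24.7%, interval 16.2 to 35.6, beside 16.1%) and lost 9 (12.3%, beside 21.1%). Of 46 shared regions 10 were higher (21.7%, 12.3 to 35.6, beside 9.71%) and 1 lower (2.17%, beside 8.97%) by column 7. By pileup 14 were higher (30.4%, beside 12.4%) and 1 lower (2.17%, beside 15.8%). The higher ones by both measures included the promoters of CLEC4A (2.04 in column 7) and CLEC4D (1.9). The lower one in column 7 was the CLEC2B promoter (0.594), which by pileup did not pass the ratio (0.683); the lower one by pileup (0.499) lay downstream of CLEC2B. The CLEC1B region named here (chr12:9991825-9992668), in an untranslated part of that platelet and myeloid lectin gene, was at 2.75 in DMSO, 11.5 in ATRA and 4.28 in the combination and absent from Corin.

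Summit positions were otherwise close between the lists. In 34 of the 42 lectin regions held by all 4 lists, the strongest summits of the lists lay within 50 bp of each other (81%, beside 80.5% of such regions genome-wide), with a median spread of 20 bp beside 19 bp. The CLEC4A and CLEC2B promoters were among the 8 with a wider spread.

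Taking for each gene the strongest promoter value of each list, 8 of the 10 receptor genes had a promoter region in DMSO, 9 in ATRA, 7 in Corin and 8 in the combination, where 71.6%, 69.3%, 70% and 69.4% of all protein-coding genes had one. OLR1 counts here by its internal starts. The strongest values of 2 lists can come from different regions of a gene. For CLEC12A the ATRA value was from the canonical start (11.8) and the DMSO value from the most upstream start (13.4). For CLEC4C the combination value was from the canonical start (8.23), and the DMSO, ATRA and Corin values were from its other region (7.46 in DMSO). The higher calls at the canonical start of CLEC4C therefore do not appear here. With ATRA 1 of 8 receptor genes was higher (CLEC4A; 3.77% of 13601 protein-coding genes were) and 1 lower (CLEC2B; 2.98%). By pileup the CLEC2B call is not given, at 1.07. With Corin 0 of 7 were higher (1.39% of 13699) and 1 was lower (CLEC4D; 1.74%), also a call that pileup does not give. With the combination 2 of 8 were higher (CLEC4A and CLEC4E; 2.43% of 13598) and 0 lower (2.16%). The median centred ratios of the receptor genes were 1.29 with ATRA, 0.987 with Corin and 1.12 with the combination, beside 0.886, 1.05 and 1.03 for all protein-coding genes.

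All 26 genes of a list of signalling partners and outputs of these receptors had a promoter region in every list. With ATRA 0 were higher and 1 lower, the cytokine gene IL6 (0.572), and the median ratio was 0.845. With Corin 0 were higher and 1 lower, FCER1G (0.652), which encodes the Fc receptor gamma chain, and the median was 1.04. With the combination CARD9 (1.69), the adaptor named above, and PYCARD (1.71), an inflammasome adaptor, were higher and IL6 (0.629) lower, and the median was 0.998. These counts and medians are to be read beside the shares and medians for all protein-coding genes given above.

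Of 15 further lectin-like genes on the same chromosome arm, 7 had a promoter region in DMSO, 9 in ATRA, 7 in Corin and 8 in the combination. Those that differed were KLRF1, KLRD1 (3.56 in ATRA and 3.01 in the combination only), CLEC2A (absent from Corin) and CLEC1B (2.67 in ATRA only). Of 18 C-type lectin genes elsewhere, 13, 13, 13 and 14 had one. The shares of all protein-coding genes, to be set beside the counts of both lists, were 71.6%, 69.3%, 70% and 69.4%. CD209 (DC-SIGN, a dendritic cell receptor for viral and fungal sugars) was absent from DMSO and at 10.6 in ATRA, 2.01 in Corin and 3.12 in the combination. CLEC3B was held in DMSO only at 2.54 and CLEC4M in the combination only at 2.01.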

How the data were processed

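ATAC-seq was measured in 8 samples of U-937 cells, 4 groups of 2. The submitters' processing notes name cutadapt, Bowtie2, SAMtools, Picard and MACS2 and the build hg38, without versions or settings. The authors deposited 1 peak list per group in narrowPeak layout, with 0 columns of single samples and with the fold over local background (a ratio, column 7), −log10 p and −log10 q, a score and the summit's offset in each deposited list. All peak ends lay inside the hg38 chromosome lengths. The score was not analysed.

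Overlapping peaks (at least 1 bp) of the 4 lists on chromosomes 1 to 22, X and Y were merged into regions. Ratios were centred on the median over all regions a pair shared, and 1.5-fold was counted. A promoter region lay within 1 kb of any transcript start in GENCODE release 44. Pileup and local background were solved from p and fold under a Poisson model, and in each list at least 99.96% of pileups came out whole within 0.05. Absence from a list means that no peak passed the authors' filter, not closed chromatin.

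All 10 genes are named. Regions named are the strongest promoter region and strongest region of each gene, the 6 strongest regions absent from a list and the 6 with the widest range in all 4 lists. The others described were chosen after their values were seen: the second promoter regions of CLEC4C, CLEC4D, CLEC12A, CLEC7A and OLR1, the region upstream of CLEC6A, the introns at 12.2 (CLEC1A) and 9.86 (CLEC7A) in DMSO, and signalling genes past the ratio. Members, lists, the pileup measure and the stretch from the CLEC2B window to CLEC12A were chosen with earlier results of these data known. Alternatives varied the window, a q threshold, the merging rule, centring and the ratio. Python 3.11.15, pandas 2.3.3, numpy 2.4.6, scipy 1.17.1 and matplotlib 3.10.9 were used. The counting and solving steps were tested on simulated data. Some sequences are not reported here.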

Additional observations from a re-analysis of the deposited data

How the results depend on the processing

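No paired analysis was possible because each group has 1 peak list over both samples, and leaving out a sample was not possible for the same reason. Counts of lectin regions moved as follows, over 58 regions with 10 kb windows, 118 with 50 kb, 83 with a −log10 q of at least 5 and 183 when summits instead of whole peaks were linked. Except for the pileup measure, shares over all regions were not taken under these alternatives, so the counts have no background beside them. With linked summits, regions gained or lost were 40 and 16 for ATRA (21 and 7 in the report), 16 and 40 for Corin (8 and 12) and 40 and 23 for the combination (14 and 9), with 10 lower for ATRA and 3 higher for Corin. With 10 kb windows Corin gained 2, with 0 higher and 2 lower, and the combination had 6 higher and 1 lower. With 50 kb windows ATRA had 12 higher and Corin 3. Without centring ATRA had 15 higher and 0 lower, and Corin 0 higher. With a ratio of 2, ATRA had 4 higher and 0 lower, Corin 0 and 1, and the combination 3 and 1. Centring within 10 classes of strength gave 5 higher for Corin, and the q threshold gave 1 lower for the combination. The pileup measure, chosen after seeing the data, gave 19 higher and 0 lower for ATRA and 8 lower for both Corin and the combination. It turned the centred log2 ratio of ATRA over DMSO to 0.10 at the CLEC2B promoter and 0.00 at the region 7850 bp upstream of CLEC12A. The cause was not tested. Of 53 ratios of named regions, 45 moved by less than 1.5-fold under pileup, among which some values near 0 changed sign, 6 moved further and the 2 above turned. Read depth is unknown, and its part in the absence of weak regions was not tested.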

Other observations

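A 50 bp stretch of the CLEC4E promoter region has a second exact copy in hg38, at chr12:8566167-8566216, 25145 bp from the promoter summit and just outside the windows. A region there (chr12:8566068-8566840) was held by ATRA at a column 7 of 7.41 and by the combination at 3.28, and by neither DMSO nor Corin. The other 50 bp stretches searched, 3 in each named region, occurred once in the genome. Among C-type lectin genes elsewhere, CLEC10A, a macrophage galactose receptor chosen here after its values were seen, had a promoter region at 8.04 in DMSO, 21.6 in ATRA, 3.54 in Corin and 12.9 in the combination.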
